A study of Mus musculus with 2 samples.

Results

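The 10 genes described here encode regulators of the ionocyte and the channels, pump and transporters that move ions across airway epithelium. They are Foxi1, Ascl3, Atp6v1b1, Cftr, Slc26a4, Scnn1a, Scnn1b, Scnn1g, Ano1 and Slc12a2. They were picked by gene symbol, and all 10 were measured, each by 1 probe set, among 22180 named genes. Nasal mucosa of C57BL/6 mice aged 4 to 6 weeks was compared 3 days after papain, a plant cysteine protease used as a model allergen, and 3 days after phosphate-buffered saline (PBS), its vehicle. RNA of each group was hybridised to 1 array, an Affymetrix Mouse Gene 2.0 ST. The design text states that 4 samples were combined into a specimen and does not say whether that number holds for each array. The labels name no genetic change in either group. With 1 array per group no test was possible, no SD between animals exists, and precision is limited by how few arrays there were.

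Ionocytes are rare epithelial cells that carry much of the Cftr transcript of the airway, and the forkhead factor Foxi1 specifies them. Airway surface liquid is set by the balance of sodium uptake through the epithelial sodium channel (ENaC) and chloride or bicarbonate secretion through CFTR, the calcium-activated channel ANO1 and exchangers such as pendrin, the Slc26a4 product. In the nose, submucosal and Bowman's glands also secrete fluid, so several of these genes are expressed outside ionocytes.

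Values below are log2 signals, and a log2 ratio is the papain signal minus the PBS signal. Background level is the median signal of 34 measured genes of other tissues, 4.98 for papain and 4.88 for PBS. The 95 percentile of those genes over both arrays was 6.72. Among the 34, Odf1 and Lhb exceeded it in both arrays. Of the 10 genes, 9 exceeded 6.72 in both arrays, and Slc26a4 did not. Signals of different probe sets were not ranked against each other, because probe sets differ in sensitivity. The 2 brightest probe sets of a gene, compared over the 261 genes with both above the floor, gave an SD of 0.30 for the log2 ratio of 1 probe set. The floor is the median mean signal of all named genes, 6.29. That SD measures probe set error and leaves out the spread between animals.

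None of the 10 genes differed 2-fold between the arrays. Of all named genes, 1.83% were higher by 2-fold or more after papain and 0.73% were lower by as much. At 1.5-fold, 1 gene, Scnn1b, was lower as deposited and 0 were higher, against 4.34% and 5.38% of all named genes. The ratio was below 0 for 8 of the 10 genes, against 54.4% of all named genes. The median log2 ratio of the 10 was -0.38, beside -0.03 for all named genes. Among the 9 genes above the floor, 7 were below 0 and the median was -0.35, beside 64.1% below 0 and a median of -0.10 for the 11708 named genes above it. At least 2-fold lower were 0 of those 9 genes and 0.393% of genes above the floor. All 10 ratios lay inside the central 95% of named genes, which ran from -0.70 to 0.85.

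**Figure D1:**
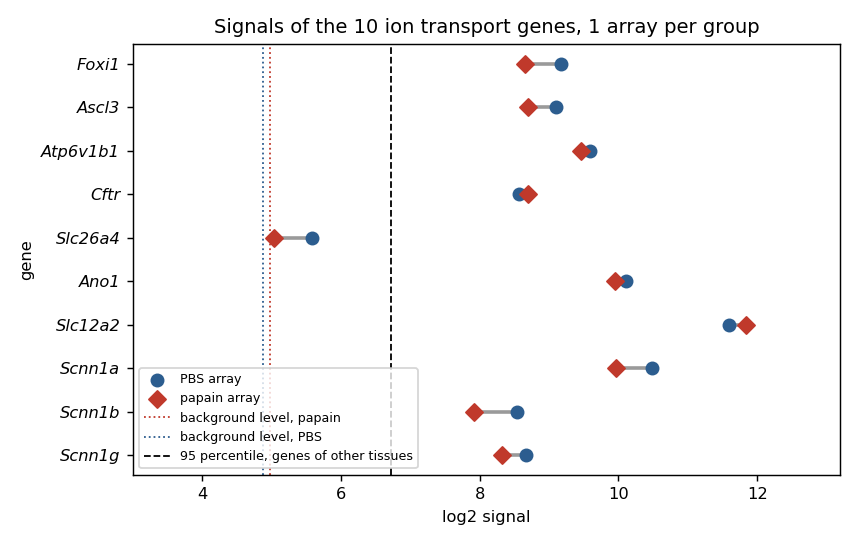
Log2 signal of each gene in the PBS array (blue circles) and the papain array (red diamonds), with dotted lines at background level and a dashed line at 6.72, the 95 percentile of genes of other tissues. The papain point lies to the left for 8 genes and to the right for Cftr and Slc12a2, and Slc26a4 alone lies left of the dashed line.

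Both ionocyte transcription factors read lower after papain. Foxi1, the forkhead factor that specifies ionocytes, read 8.66 after papain and 9.17 after PBS. Its log2 ratio was -0.51, a PBS over papain ratio of 1.43, and 6.53% of named genes had a lower ratio. Ascl3, a basic helix-loop-helix factor of ionocytes and gland ducts, read 8.69 after papain and 9.10 after PBS, a log2 ratio of -0.41. For both factors the difference exceeded the probe set SD of 0.30 and stayed under 2 SD, 0.60. In a bulk specimen, fewer ionocytes and less transcript per ionocyte cannot be told apart.

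The proton pump subunit gene Atp6v1b1 and the channel gene Cftr differed less than these factors. Atp6v1b1, the B1 subunit of the proton pump (V-ATPase) of ionocytes and other acid-secreting cells, read 9.46 after papain and 9.59 after PBS, a log2 ratio of -0.13. Cftr, the cyclic AMP-regulated anion channel, read 8.69 and 8.57 and was 1 of the 2 genes with a higher signal after papain, at a log2 ratio of 0.13. Both differences were smaller than the probe set SD. The ratio of Cftr had the opposite sign to those of Foxi1 and Ascl3.

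Promoters of Foxi1, Ascl3 and Atp6v1b1 are shown because Foxi1 is a forkhead factor of ionocytes, and forkhead factors bind a shared core sequence. That of Cftr, which held no match, is not shown. Whether Foxi1 acts on any of these genes was not tested. Each sequence is the 250 bases before the RefSeq transcript start, 5' to 3' on the gene's strand, in build GRCm38.p6. Capitals mark a match to any of 3 forkhead motifs, TGTTTAC and its variants TATTTAC and also TGTTTGC, on either strand. The Foxi1 window is chr11:34208090-34208339 on the minus strand, the Ascl3 window is chr7:109731733-109731982 on the minus strand, and the Atp6v1b1 window is chr6:83742767-83743016 on the plus strand.
Foxi1: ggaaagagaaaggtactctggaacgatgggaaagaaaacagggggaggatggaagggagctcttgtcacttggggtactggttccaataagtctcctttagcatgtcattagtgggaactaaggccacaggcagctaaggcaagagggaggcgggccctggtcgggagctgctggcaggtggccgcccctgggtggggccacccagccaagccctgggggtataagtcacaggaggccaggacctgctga
Ascl3: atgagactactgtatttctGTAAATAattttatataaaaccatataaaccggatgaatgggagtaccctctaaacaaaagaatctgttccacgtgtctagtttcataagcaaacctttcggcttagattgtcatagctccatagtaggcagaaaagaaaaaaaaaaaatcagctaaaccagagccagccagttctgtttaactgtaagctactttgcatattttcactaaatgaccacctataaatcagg
Atp6v1b1: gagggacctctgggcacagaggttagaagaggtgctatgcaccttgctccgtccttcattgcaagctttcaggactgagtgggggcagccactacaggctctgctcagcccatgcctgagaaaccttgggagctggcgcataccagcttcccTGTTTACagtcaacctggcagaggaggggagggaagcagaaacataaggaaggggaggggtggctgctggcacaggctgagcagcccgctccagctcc

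The Atp6v1b1 window held TGTTTAC on the gene's strand, from 98 to 92 bases before the start. The Ascl3 window held TATTTAC on the opposite strand, from 231 to 225 bases before the start, so the capitals there are its reverse complement. The Foxi1 window, 58.8% G and C, held none of the 3, and nor did those of Cftr, Slc26a4, Scnn1b, Scnn1g and Ano1. The promoter table held 8 of the 10 genes, all but Scnn1a and Slc12a2. Of these 8, 2 had a match, 1 each, beside 9.73% of 32851 promoter windows of this length. Of the 14 ionocyte genes that the promoter table held, 3 had a match. TGTTTAC alone was in 3.17% of windows and TATTTAC in 2.73%. The G and C content was 34.8% in the Ascl3 window, 59.6% in the Atp6v1b1 window and 52.4% at the median of all windows. A match describes letters and does not show binding.

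Other genes of ionocytes mostly had ratios below 0 as well. Of 13 measured genes of that list, 11 were below 0, 2 above 0 and 0 past 2-fold, and the median log2 ratio was -0.28. With Foxi1, Ascl3, Atp6v1b1 and Cftr included, 14 of 17 ionocyte genes were below 0. Beside these counts, 54.4% of all named genes were below 0. Of the 13, 11 were above the floor and 10 of those were below 0, beside 64.1% of named genes above it. Smbd1, listed as an ionocyte marker under an older symbol, read 7.35 after papain and 7.87 after PBS, a log2 ratio of -0.52. Atp6v0d2, the d2 subunit of the V-ATPase, read 8.51 and 8.93, a log2 ratio of -0.42. Hepacam2, a cell adhesion gene, had -0.35. P2ry14, a receptor for UDP-glucose, went the other way, at 7.46 after papain and 6.54 after PBS. Its log2 ratio of 0.92 was the highest of the list, is of uncertain size because the PBS signal was under 6.72, and became at least 2-fold when the ratio was corrected for signal by loess, a smoothed trend of ratio on signal. The 18 measured V-ATPase subunits that most cells express had a median of -0.11, with 14 below 0, or 13 of 17 above the floor, and 0 past 2-fold. Among them Atp6v0a2 had -0.51 and Tcirg1, the a3 subunit of osteoclasts and leukocytes, had -0.48, while Atp6v0e had -0.27 and Atp6v0b -0.25.

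All 3 ENaC subunits read lower after papain, with log2 ratios from -0.62 to -0.35. ENaC is the apical channel through which epithelium takes up sodium, and its alpha, beta and gamma subunits are the products of Scnn1a, Scnn1b and Scnn1g. Scnn1b read 7.92 after papain and 8.54 after PBS. Its log2 ratio of -0.62, a PBS over papain ratio of 1.54, was the lowest of the 10 genes as deposited, and 3.61% of named genes had a lower one. It was past 2 probe set SDs and 1.5-fold only as deposited, at -0.56 after quantile normalization, -0.58 with the median ratio set to 0 and -0.52 after loess. Slc26a4 was the lowest after quantile normalization, at -0.63, and after loess, at -0.62, past 1.5-fold and 2 probe set SDs in both. Scnn1a read 9.96 and 10.49, a log2 ratio of -0.52 and a PBS over papain ratio of 1.44. Scnn1g read 8.32 and 8.67, a log2 ratio of -0.35 and a PBS over papain ratio of 1.28. Scnn1g and Scnn1b are neighbours on chromosome 7 with 1 long noncoding RNA gene entry between them in the RefSeq table, and Scnn1a lies on chromosome 6. The difference of each subunit exceeded the probe set SD.

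**Figure D2:**
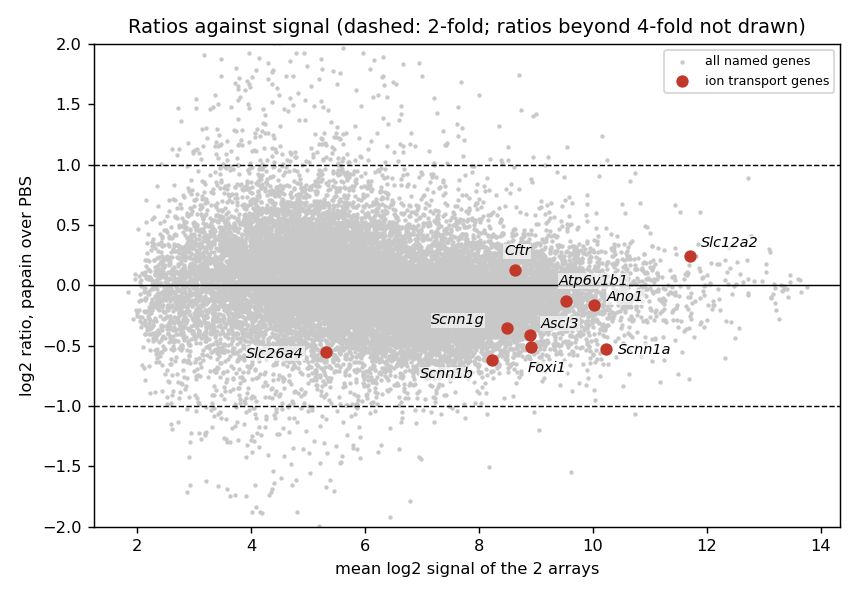
Log2 ratio of papain over PBS against the mean log2 signal of both arrays, for all named genes (grey) and the 10 genes described here (red), with dashed lines at 2-fold. The 10 genes lie between -0.62 for Scnn1b and 0.24 for Slc12a2, inside the spread of named genes of like signal.

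Genes that control ENaC showed no 2-fold difference either. Of 18 measured regulators and channel-activating proteases, 14 were below 0, beside 54.4% of all named genes, and the median log2 ratio was -0.19. Above the floor 12 of 16 were below 0, beside 64.1% of named genes there. Prss8, the membrane-anchored serine protease prostasin that activates ENaC, read 8.75 after papain and 9.30 after PBS, a log2 ratio of -0.55. Sgk1, the aldosterone-induced kinase that keeps ENaC at the cell surface, read 8.87 and 9.36, a log2 ratio of -0.49. Usp2, a deubiquitinase acting on the channel, had -0.45. Tmprss4, another serine protease able to activate ENaC, went the other way at 0.37. Nedd4l, the ubiquitin ligase that removes ENaC, and Furin, which cleaves its alpha and gamma subunits, had -0.34 and -0.25 and were named after their values were seen.

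The anion pathways differed between genes. Slc26a4 encodes pendrin, an exchanger of chloride for bicarbonate, iodide or thiocyanate that IL-4 and IL-13 induce in airway epithelium. It read 5.03 after papain and 5.59 after PBS, a log2 ratio of -0.55. Both signals were above background level but under 6.72, the papain signal by only a small margin over background, so its fold is of uncertain size. Ano1, the calcium-activated chloride channel of secretory epithelium, smooth muscle and interstitial cells of Cajal, read 9.95 and 10.11, a log2 ratio of -0.16. Slc12a2, the sodium-potassium-chloride cotransporter that loads chloride across the basolateral membrane, read 11.83 after papain and 11.59 after PBS. Its log2 ratio of 0.24 was the highest of the 10 genes, and 80.0% of named genes had a lower one. The differences of Ano1 and Slc12a2 were smaller than the probe set SD.

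Families of these transporters held few larger differences. None of the 9 other anoctamins passed 2-fold, with a median of 0.06 over all members and -0.14 over the 4 above the floor. Among them Ano6, a lipid scramblase, had -0.39, Ano9 0.36, Ano7 0.25 and Ano8 -0.22. None of the 10 other SLC26 genes passed 2-fold, and the median was -0.10, with Slc26a9, an apical chloride channel, at -0.48, Slc26a2 at -0.22, Slc26a7 at -0.20 and Slc26a6 at 0.07. The 7 measured other SLC12 genes had a median of -0.08 and none past 2-fold. Slc12a4, a potassium-chloride cotransporter, had -0.61, Slc12a9 -0.56, Slc12a5 0.27 and Slc12a8 0.25. Of the anoctamin, SLC26 and SLC12 genes named here, only Ano6, Slc26a2 and Slc26a7 exceeded 6.72 in both arrays. The ratios of the others are of uncertain size. Of 14 other chloride channel genes, 10 were below 0, beside 54.4% of all named genes, and the median was -0.11. Above the floor 7 of 9 were below 0, beside 64.1% of named genes there. None of the 14 was at least 2-fold lower, and 1 was at least 2-fold higher, beside 1.83% of all named genes. That gene was Clca1, a secreted protease of goblet cells that raises ANO1 activity, at 7.87 after papain and 6.03 after PBS, a log2 ratio of 1.84 whose size is uncertain because its PBS signal was under 6.72. Clcn3, an exchanger of intracellular vesicles, had 0.55, Clcn6 -0.36 and Clcn5 -0.27.

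Partners of apical transport were likewise within 2-fold. Of 10 measured CFTR regulators, all above the floor, 9 were below 0, beside 64.1% of named genes above it. Their median was -0.23. P2ry2, the nucleotide receptor that triggers calcium-activated chloride secretion, read 6.63 after papain and 7.26 after PBS, a log2 ratio of -0.62. Slc9a3r1, the scaffold that anchors CFTR at the apical membrane, had -0.45, Vipr1, a receptor for vasoactive intestinal peptide, -0.42 and Slc9a3r2 -0.36. Of 10 measured sodium pump genes, 4 were below 0, beside 54.4% of all named genes, and the median was 0.01. Above the floor 3 of 7 were below 0. Fxyd1 and Fxyd2, small regulators of the pump, had -0.65 and -0.56, while Fxyd4 had 0.57 and Atp1b2 0.28. Fxyd4 and Atp1b2 were under 6.72 in both arrays and P2ry2 after papain, so these ratios are of uncertain size.

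Of 12 epithelial potassium channel genes, which set the driving force for secretion, 9 were below 0, beside 54.4% of all named genes. Above the floor 7 of 9 were below 0, beside 64.1% of named genes there. None of the 12 passed 2-fold and the median was -0.14. Kcnk5 had -0.54, Kcne2 -0.38, Kcne1 0.37 and Kcnn4 -0.30. Of 14 measured acid-base transporters, 7 were below 0, beside 54.4% of all named genes. Above the floor 5 of 7 were below 0, beside 64.1% of named genes there. Of the 14, 0 passed 2-fold and the median was -0.07. Slc4a11 read 8.37 after papain and 7.79 after PBS, a log2 ratio of 0.57, while Slc9a2, a sodium-proton exchanger, had -0.56, the bicarbonate cotransporter gene Slc4a4 -0.43 and the anion exchanger gene Slc4a2 -0.43. Of 11 aquaporins, 0 passed 2-fold and the median was 0.13 over all and -0.06 over the 7 above the floor. Aqp5, the water channel of gland acini, read 10.30 after papain and 10.77 after PBS, a log2 ratio of -0.48. Aqp1, the water channel of endothelium, had -0.58, Aqp4 0.31 and Aqp12 0.25. Kcne1, Kcne2 and Aqp12 were under 6.72 in both arrays and Slc9a2 after papain, so these ratios are of uncertain size.

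The ratio of Slc26a4 had the opposite sign to the median of other genes that IL-13 induces in airway epithelium. Of 15 measured genes of that list, which leaves Slc26a4 out, 4 were at least 2-fold higher after papain, beside 1.83% of all named genes. None was at least 2-fold lower, beside 0.73% of all named genes. Of the 15, 11 were above 0 and 4 below 0, beside 54.4% of all named genes below 0. The median log2 ratio was 0.47. Those at least 2-fold higher were Chil4 at 4.11, Clca1 at 1.84, Itln1 at 1.18 and Fcgbp at 1.07. Chil4, a chitinase-like protein, read 12.74 after papain and 8.63 after PBS. The log2 ratio of Slc26a4 was -0.55, from signals under 6.72 in both arrays, and whether it differs from the list was not tested.

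**Figure D3:**
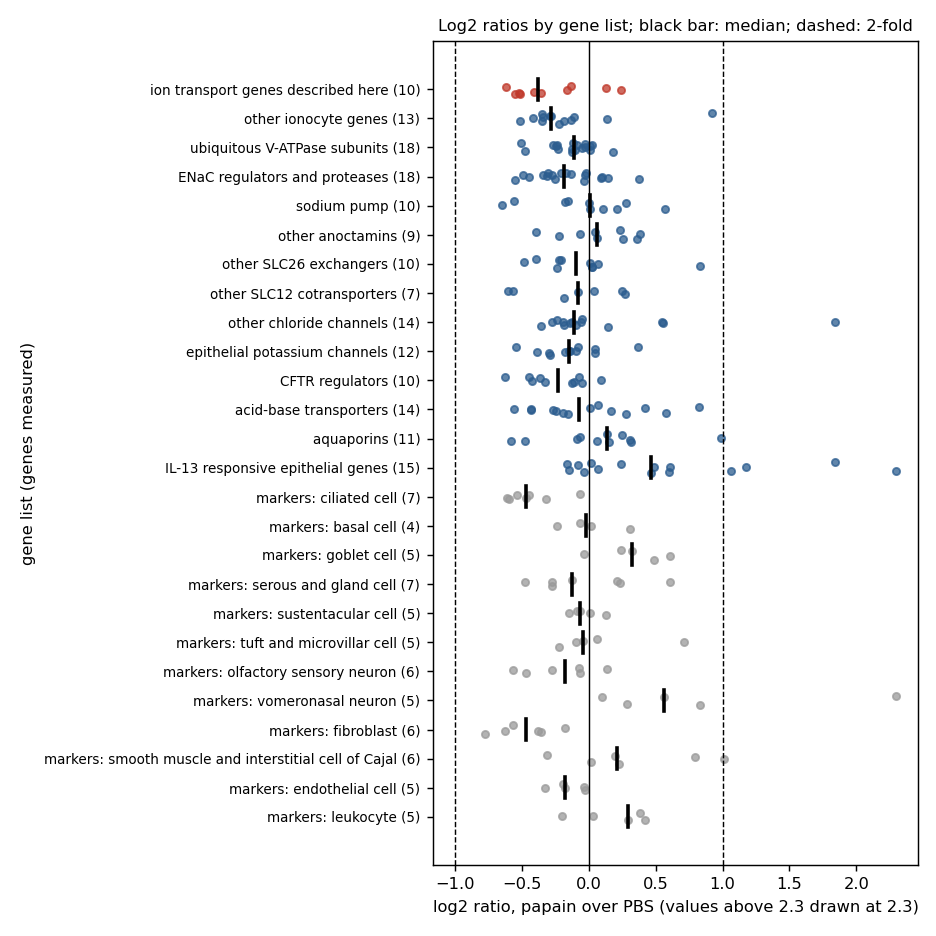
Log2 ratio of papain over PBS for each measured gene (points) by gene list, with the number measured in brackets, the median as a black bar and dashed lines at 2-fold. The median was -0.38 for the 10 genes described here, -0.28 for other ionocyte genes, -0.19 for ENaC regulators and 0.47 for IL-13 responsive genes, and Chil4 and Calr4 are drawn at the edge.

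Markers of other cell types also differed between the arrays, some lists lower and some higher after papain. The ciliated, fibroblast, goblet and vomeronasal markers all lay above the floor in at least 1 array. Of named genes above the floor 64.1% were below 0, beside 54.4% of all named genes. All 7 measured ciliated cell markers were lower after papain, with a median of -0.47 and a summed linear signal of 4373 against 6113 after PBS, and Foxj1, the transcription factor of motile cilia, had -0.54. All 6 fibroblast markers were lower, with a median of -0.47 and a summed linear signal of 7530 against 10647. Of 5 goblet cell markers, 4 were above 0, with a median of 0.32 and a sum of 11206 against 8203, and Muc5ac, an airway mucin, had 0.61. Muc5ac, Spdef, Tff2 and Agr2 are also in the IL-13 responsive list, so these lists are not independent. All 5 vomeronasal neuron markers were above 0, with a median of 0.56 and a sum of 3148 against 2404. Most of that sum came from Gnai2, Gnao1 and Meis2, which read 10.15, 8.96 and 9.40 after PBS. Whether their signal came from vomeronasal neurons was not tested. The part of any of these cell types in the ratios of ionocyte and ENaC genes was not tested. None of the ciliated, fibroblast and goblet markers was at or under background level in either array. Of the vomeronasal markers, Calr4 read 7.94 after papain and 4.59 after PBS, the latter under background level. Trpc2 was under 6.72 after PBS.

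The remaining marker lists had medians from -0.18 to 0.29. Median log2 ratios were -0.02 for 4 basal cell markers, -0.07 for 5 sustentacular cell markers, -0.04 for 5 tuft and microvillar cell markers, -0.13 for 7 serous and gland cell markers, -0.18 for 6 olfactory sensory neuron markers and -0.18 for 5 endothelial markers. None of the tuft and microvillar markers exceeded 6.72 in both arrays, Gnat3, a taste G protein subunit gene, had 0.72, and the 2 above the floor had a median of 0.34. The gland median was 0.04 above the floor, and the basal median was 0.06 after loess. Leukocyte markers had 0.29 over 5 genes. Smooth muscle and interstitial cell markers, whose cells also express Ano1, had 0.21 over 6 genes, with the smooth muscle myosin gene Myh11 at 1.01. Kit, a receptor gene listed as a marker of interstitial cells of Cajal, had -0.31. Whether its signal came from such cells was not tested. Markers of ciliated, sustentacular and olfactory cells all exceeded 6.72 in both arrays, so the defining cells of the labelled nasal tissue were represented. The ionocyte factors Foxi1 and Ascl3 exceeded it too.

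The signs of all 10 genes held under each scaling tried. Quantile normalization, a median ratio of 0 and loess each left 8 genes below 0 and 2 above. After loess the median of the 10 was -0.30, with Foxi1 at -0.43, Scnn1a at -0.47, Scnn1b at -0.52 and Scnn1g at -0.26. Atp6v1b1 moved to -0.07, Ano1 to -0.10 and Cftr to 0.22. Scnn1g was inside the probe set SD after loess and after quantile normalization, where it had -0.30.

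**Figure D4:**
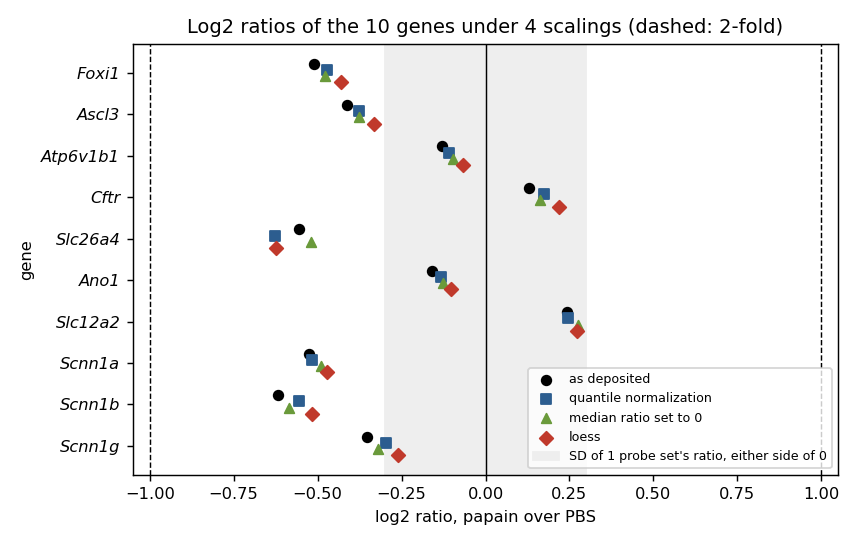
Log2 ratio of papain over PBS for each of the 10 genes as deposited and under 3 other scalings, with the grey band showing 0.30, the SD of 1 probe set's ratio, on either side of 0. Foxi1, Ascl3, Slc26a4, Scnn1a and Scnn1b lie left of the band under all 4 scalings, while Atp6v1b1, Cftr, Ano1 and Slc12a2 lie inside it.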

How the data were processed

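Total RNA of nasal mucosa was labelled with biotin as single-stranded cDNA, per the labels' protocols, and hybridised to 2 arrays. The values that the authors deposited are taken as log2 signals of transcript clusters, judged by their range. Per the submitters' processing notes, Transcriptome Analysis Console 4.0 was used. How background was corrected, probes summarised and arrays scaled is not given in the sources used here. If the scaling equalised the arrays, differences in total RNA are hidden and each ratio is relative to other probe sets.

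Of 41345 clusters, 23521 carried 1 gene symbol, 1814 several and 16010 none, and only those with 1 were named. The brightest cluster per gene by mean signal gave 22180 genes. Of 288 listed genes 263 were measured, 2 of them under updated symbols, and all 263 gene IDs were found in the RefSeq table with the same symbol. Promoters came from the RefSeq table of build GRCm38.p6. The array annotation names no build, so no other coordinates are given.

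The 10 genes and the 13 other lists and 12 marker lists were chosen with earlier results of these data known. Named were the 10 genes and, per list, those past 2-fold with both signals above background level, then the largest log2 ratios up to 4, beside genes said to be named otherwise. Alternatives were quantile normalization, median ratio set to 0, loess with a span of 0.3, averaged probe sets, floors at the median and 75 percentile, and thresholds of 1.5-fold and 3-fold. Counting and scaling steps were tested on simulated data. Python 3.11.15, numpy 2.4.6, pandas 2.3.3, statsmodels 0.14.6 and matplotlib 3.10.9 were used.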

Additional observations from a re-analysis of the deposited data

Results flagged for a closer look

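Listed genes were also named on 7 probe sets that carry several gene symbols and that no comparison used. The 1 of these above 6.72 and higher after papain than after PBS was singled out. The cluster that names both Krt5 and Krt6a, keratin genes of basal and stressed epithelium, read 10.18 after papain and 9.83 after PBS, a log2 ratio of 0.36. It was left out because its signal cannot be assigned to 1 of these genes. Others above 6.72 were lower after papain, with log2 ratios of -0.50 for the cluster of Adcy3 and Cenpo, -0.25 for that of Ttc14 and Ccdc39 and -0.18 for that of Fxyd3 and Lgi4.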

How the results depend on the processing

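With 1 array per group, no setting gives a test, and the size of the spread between animals is unknown. The sign of each of the 10 genes held under quantile normalization, a median ratio of 0, loess and averaged probe sets, and each value moved by less than the probe set SD of 0.30. Slc26a4 was below both floors, so no value exists for it there. The median of the 10 ranged from -0.38 as deposited to -0.30 after loess. The count of the 10 genes at least 2-fold lower was 0, and 1 at 1.5-fold. That gene, Scnn1b, was past 1.5-fold as deposited at -0.62 and not at -0.56 after quantile normalization, -0.58 with the median ratio set to 0 or -0.52 after loess. Slc26a4, with deposited signals under 6.72 in both arrays, was past 1.5-fold at -0.63 after quantile normalization and -0.62 after loess. For other lists, the count higher at 1.5-fold was 1 for other ionocyte genes (P2ry14), other SLC26 exchangers (Slc26a5), acid-base transporters (Slc4a9) and aquaporins (Aqp6). At 2-fold it was 0 for each of these. The count lower at 1.5-fold was 1 for the sodium pump, other SLC12 cotransporters and CFTR regulators. At 2-fold, 1 was higher for other ionocyte genes after loess (P2ry14) and for aquaporins with the median ratio set to 0 (Aqp6). Slc26a5 and Aqp6 were under background level in both arrays and Slc4a9 after PBS, so these ratios are of uncertain size. IL-13 responsive genes had 2 past 3-fold. The median of other SLC12 cotransporters was -0.56 among the 3 above the floor at the median. Medians changed sign for the sodium pump, -0.01 after quantile normalization, for acid-base transporters, 0.07 above the 75 percentile floor, and for other anoctamins and aquaporins above a floor. They also changed sign for basal cell markers, from 0.01 to 0.06 under the 3 other scalings, and above the floor at the median for gland markers, 0.04, and tuft and microvillar markers, 0.34. Averaging probe sets changed none of the 10 genes, since each had 1 probe set. No paired analysis was possible because each group was 1 array.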
